A study of Mus musculus with 8 samples.

Results

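Interferon-stimulated genes (ISGs) were examined in 4T1 cells, a mouse mammary carcinoma line, after treatment with acetate or vehicle. The 42 genes were taken by name because interferon is known to induce them or because they run its signaling, and all 42 were among the 20189 genes of the table. Every library came from wild type (WT) 4T1 cells grown in the same serum-containing medium, with 5 mM acetate in 4 libraries and with its vehicle, water, in the 4 others, for 48 hours. Vehicle and acetate libraries of the same number (1 to 4) carried a shared experiment code and were compared as 4 pairs. The labels give only the experiment codes, and the study counts the replicates of this comparison as independent experiments. The model was a cell line in culture, without the host cells that would surround it in a tumor.

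Interferons are secreted proteins that bind receptors on the cell surface and activate the kinases Jak1, Jak2 and Tyk2. Type I interferons lead to a complex with Stat2 and Irf9 that binds the interferon-stimulated response element (ISRE), and interferon gamma acts through the gamma-activated site (GAS). The induced genes encode proteins that sense viral RNA or DNA, block viral replication, modify other proteins with Isg15, or feed back on the signal, and many tumor cell lines keep a low level of them switched on without added interferon.

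The sequences below show the element that members of several roles carried near their transcription starts. RefSeq promoters (GRCm38.p6, from 250 bases before to 50 bases after a start) were found for 33 of the 42 genes. The ISRE was searched on both strands as TTTC, any 2 bases and TTTC, with overlapping matches counted, and was in the promoters of 18 of the 33 genes (54.5%), and in those of 3.81% of the 11818 genes of the table with a promoter. The GAS letters TTCNNNGAA were in 8 of the 33 (24.2%), against 8.33%. A match is a description of the letters and was not tested as a binding site. Capitals mark the matched letters, each line gives the strand that is printed, and Stat2, Ddx58 and Bst2 are shown because their transcripts rose with acetate, Ifit3, Ifit3b, Rsad2, Isg15, Ifit1 and Gbp2 as genes of other roles with low levels in replicate 1, and Socs1 because it did not follow the others.
Stat2 (chr10:128270266-128270295, plus strand): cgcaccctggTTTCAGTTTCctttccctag
Ddx58 (chr4:40239804-40239833, minus strand): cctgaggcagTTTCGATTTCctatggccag
Bst2 (chr8:71537583-71537612, plus strand): agcctttcagTTTCATTTTCctggaatgcc
Ifit3 (chr19:34583363-34583392, plus strand): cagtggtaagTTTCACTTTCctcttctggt
Ifit3b (chr19:34607759-34607788, plus strand): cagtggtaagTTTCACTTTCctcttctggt
Rsad2 (chr12:26456553-26456582, minus strand): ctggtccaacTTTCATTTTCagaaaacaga
Isg15 (chr4:156200877-156200906, plus strand): tctgtttcggTTTCCTTTTCctacggcata
Ifit1 (chr19:34640775-34640804, plus strand): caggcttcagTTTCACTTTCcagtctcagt
Gbp2 (chr3:142620594-142620623, plus strand): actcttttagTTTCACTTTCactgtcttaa
Socs1 (chr16:10785600-10785629, plus strand): ccgctttcggTTTCTCTTTCcggcaagtct

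The windows of Ifit3 and Ifit3b were the same 30 bases, and their transcripts also shared sequence. Of the 5 genes with a promoter that rose with acetate, 3 held the ISRE letters, and of the 28 others, 15 did. The GAS letters were in the promoter of Irf1, for example (chr11:53769914-53769942, plus strand, capitals marking the match), as
Irf1: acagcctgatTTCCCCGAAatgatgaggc

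Values are normalized read counts, that is, reads of a gene divided by the reads of its library and scaled to a total of 20000000. Libraries held between 19.9 M reads (M, mega; vehicle replicate 3) and 29.3 M (vehicle replicate 4). Both libraries of replicate 1 stood apart from the 6 others on the first principal component, with scores of -104.6 and -90.1 against 8.2 to 65. The epithelial markers Epcam, Krt8, Krt18, Krt19, Cdh1 and Cldn4 were all present, each above 1000 in every library, from 1553 for Krt19 to 20872 for Krt18. Of 11 immune cell markers, 4 could be analyzed: Ptprc, which marks all leukocytes, stayed between 0.682 and 3.02, and Lyz2 between 0 and 2.16. The sum of the 4 was 93.1 to 203 in vehicle and 100.5 to 214 in acetate, mostly Cd68. Of the 4 fibroblast markers that could be analyzed, only 2 had a mean of at least 10. Among them was Pdgfra, at 229 to 1496 in vehicle and 388 to 1961 in acetate.

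The first question was how ISGs differed between acetate-treated and vehicle-treated 4T1 cells of the same pair. Acetate was followed by a small rise of 8 of the 42 genes and by a fall of 0, in a limma fit of log2(value + 1) over all genes with the replicate number as a block (Benjamini-Hochberg adjusted p under 0.05). Over all genes, 5.99% were called higher and 2.65% lower in the same fit, and 8.85% and 4% among genes with a mean of at least 10. All genes called split into 1209 higher and 535 lower (69.3% higher), and with median-of-ratios scaling into 1000 and 821 (54.9% higher), while the 8 genes kept their call under both scalings. The 8 genes were the deubiquitinase Usp18, the interferon-alpha inducible gene Ifi27, the RNA sensors Dhx58 and Ddx58, the virion tether Bst2, the secreted glycoprotein Lgals3bp, the transcription factor Stat2 and the IFIT family member Ifit2. Usp18 changed by 1.01 on the log2 scale and the 7 others by 0.19 to 0.45. In bulk libraries such as these, a change in the share of cells that express a gene cannot be told apart from a change in RNA per cell.

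The direction was shared more widely than the calls. The fitted change was above 0 for 39 of the 42 genes (55% of all genes), with a median of 0.18 against 0.02 over all genes, and 21 of the 42 had an unadjusted p under 0.05 (22.4% of all genes). The median of the genes was 0.21, 0.15, 0.23 and 0.07 in pairs 1 to 4, a mean of 0.17 ± 0.07 (SD, n = 4 pairs), where all genes had medians of 0.02, 0.00, 0.00 and 0.03. Acetate lay above vehicle in 4 of 4 pairs for 20 of the 42 (47.6%, against 16.7% of all genes and 21.6% of those with a mean of at least 10) and below it in 4 of 4 for 1, Socs1 (against 11.4%). In the same fit without the replicate block, 0 of the 42 were called, and so were 0 of all 20189 genes. Of the 42, 0 had an unadjusted p under 0.05, with an adjusted p of 1.0 for all. Here, as over the whole table, the changes did not stand out from the spread among libraries treated alike. The 8 calls rest on how evenly the pairs changed.

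**Figure D1:**
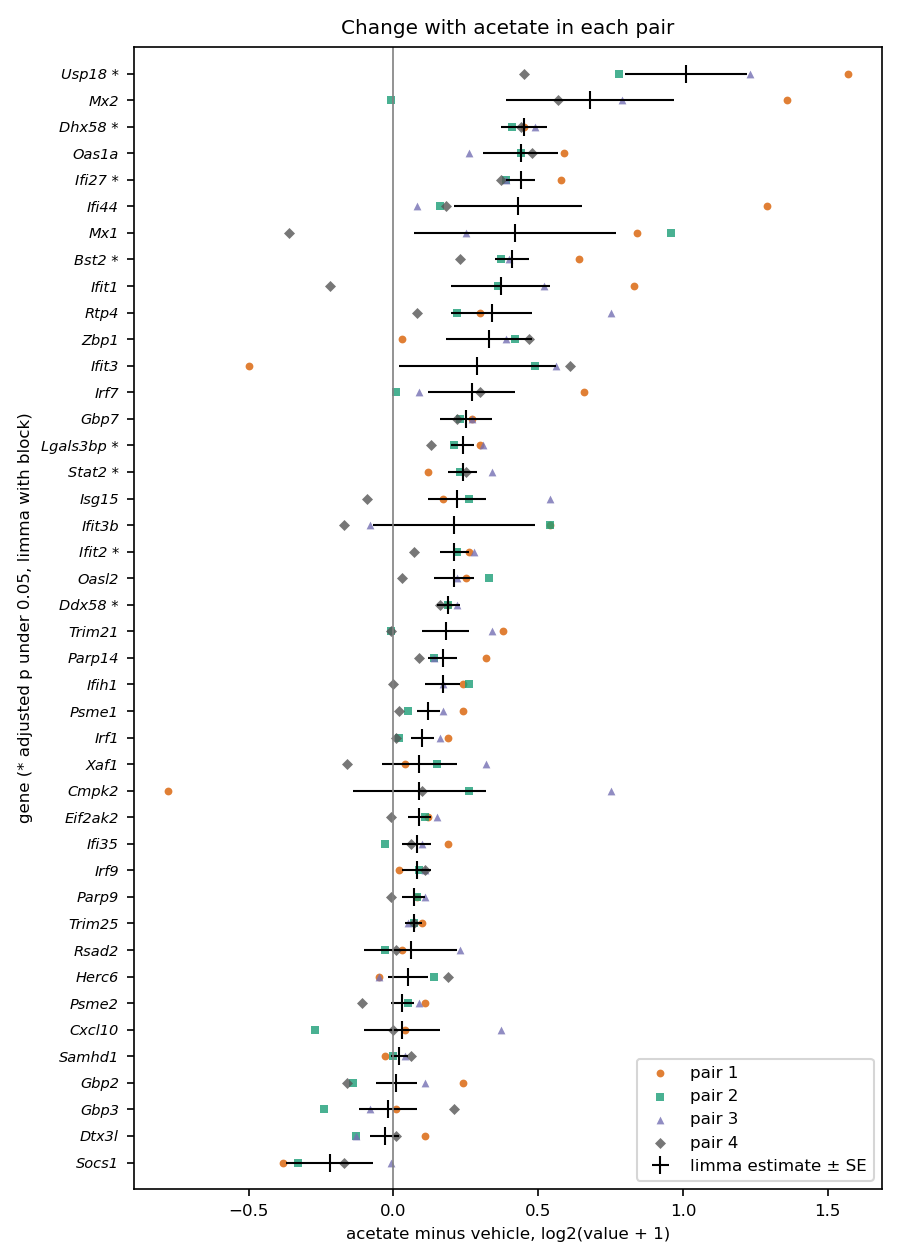
Change with acetate for each of the 42 genes, as acetate minus vehicle on the log2(value + 1) scale (x axis), with 1 symbol for each pair and the limma estimate ± SE in black. Genes are ordered by the estimate from Socs1 at -0.22 to Usp18 at 1.01, and the 8 marked with an asterisk had an adjusted p under 0.05.

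Among the transcription factors, Stat2 rose and Irf1, Irf7 and Irf9 did not pass the test. Stat2, the subunit that is particular to type I and type III interferon signaling, had 217, 542, 467 and 485 normalized reads in vehicle replicates 1 to 4 and 236, 634, 593 and 578 in acetate. Each acetate library was above its partner, while the ranges of the groups overlapped because replicate 1 was low in both. The log2 change of Stat2 (chr10:128270559-128292849) was 0.24 ± 0.05 (SE, n = 4 pairs, adjusted p = 0.0148). Irf9, its DNA-binding partner, changed by 0.08 ± 0.05 (adjusted p = 0.405), with a 95% interval of -0.03 to 0.20. Irf1, the factor that interferon gamma induces early, changed by 0.10 ± 0.04 (adjusted p = 0.154), and Irf7, which amplifies type I interferon production, by 0.27 ± 0.15 (adjusted p = 0.319). All 4 factors were higher with acetate in 4 of 4 pairs.

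The cytosolic sensors of viral RNA gave 2 of the 8 calls. Ddx58, which encodes RIG-I, had 518, 1009, 928 and 1106 normalized reads in vehicle and 589, 1148, 1083 and 1239 in acetate. Its rise was small and even, between 0.16 and 0.22 on the log2 scale in every pair, with an estimate of 0.19 ± 0.04 (chr4:40203773-40239828, adjusted p = 0.00719). Dhx58, which encodes the related helicase LGP2, had 22.1, 149.8, 131 and 228 in vehicle and 30.6, 199.5, 184 and 310.5 in acetate. This was an increase of 0.45 ± 0.08 (chr11:100694884-100704271, adjusted p = 0.0073) that lay between 0.41 and 0.49 in the pairs, although the level of replicate 1 was far below the others in both groups. Ifih1, which encodes the sensor MDA5, changed by 0.17 ± 0.06 (adjusted p = 0.118), and Zbp1, a sensor of Z-form nucleic acids, by 0.33 ± 0.15 (adjusted p = 0.215).

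Usp18, which removes Isg15 from proteins and holds back the type I receptor, showed the largest change of the 42 genes. Its normalized read counts were 3.82, 30.1, 19.1 and 45 in vehicle and 13.3, 52.5, 46.2 and 61.8 in acetate. All pairs moved up, by 1.57, 0.78, 1.23 and 0.45, and the groups still overlapped, since vehicle replicates 2, 3 and 4 lay above acetate replicate 1. The estimate was 1.01 ± 0.21 (chr6:121245906-121270917, adjusted p = 0.014) with a 95% interval of 0.54 to 1.48, and the vehicle library of replicate 1 held 5 reads of the gene. Isg15 itself, the ubiquitin-like modifier, had 40.5, 171, 155 and 222 in vehicle and 45.5, 204, 226 and 208 in acetate. It was higher in 3 of 4 pairs and did not pass (0.22 ± 0.10, adjusted p = 0.243). Herc6, the mouse ligase for Isg15, changed by 0.05 ± 0.07 (adjusted p = 0.741), and the ubiquitin ligases Trim25, Trim21 and Dtx3l by 0.07, 0.18 and -0.03, none past the threshold.

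Bst2 and Lgals3bp act outside or at the edge of the cell. Bst2, also called tetherin, holds budding virions at the plasma membrane, and had 231, 590.1, 570 and 489 normalized reads in vehicle and 360.2, 761, 752 and 574 in acetate. The increase was 0.41 ± 0.06 (chr8:71534255-71537456, adjusted p = 0.0024), largest in pair 1 (0.64) and smallest in pair 4 (0.23). Lgals3bp, a secreted binding partner of galectins, had 389, 956, 853 and 1250 in vehicle and 477, 1107, 1060 and 1371 in acetate. It was higher in every pair, by 0.24 ± 0.04 (chr11:118392751-118402092, adjusted p = 0.005). Cxcl10, the chemokine that draws T cells, had 35.9, 94.4, 68.4 and 64.2 in vehicle and 36.9, 78.3, 88.7 and 64 in acetate. No common direction was seen for it, with 2 of 4 pairs higher (0.03 ± 0.13, adjusted p = 0.924) and an estimate below 0 with quantile scaling (-0.10).

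Ifi27, a small membrane protein gene strongly induced by type I interferon, had the smallest adjusted p of the 42. It had 170.2, 1021, 783 and 1175 normalized reads in vehicle and 256, 1342, 1028 and 1524 in acetate. The pairs rose by 0.58, 0.39, 0.39 and 0.37, and the estimate was 0.44 ± 0.05 (chr12:103434211-103440239, adjusted p = 3.51e-04). Of the other 4 interferon-induced genes without a shared role, Ifi44 changed by 0.43 ± 0.22, Rtp4 by 0.34 ± 0.14, Xaf1 by 0.09 ± 0.13 and Ifi35 by 0.08 ± 0.05, with adjusted p-values between 0.175 and 0.769.

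**Figure D2:**
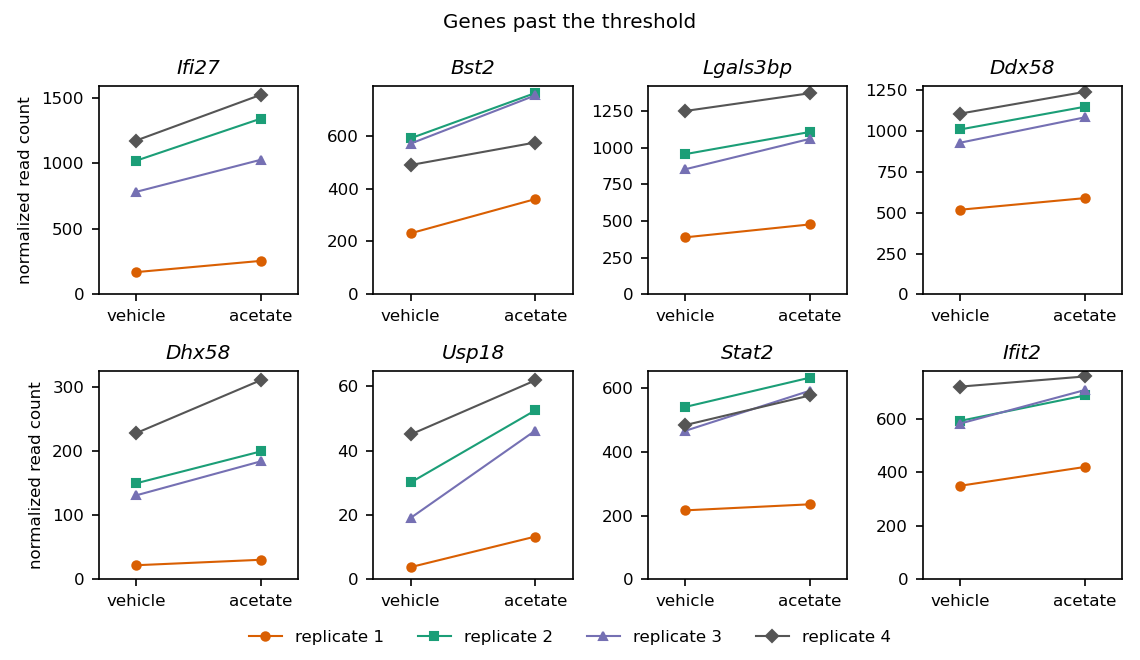
Normalized read counts (y axes, from 0) in vehicle and acetate libraries for the 8 genes past the threshold, with a line joining the 2 libraries of each replicate number. Every line rises, and the line of replicate 1 is the lowest in all 8 panels.

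In the IFIT family, whose proteins bind viral RNA that lacks self marks, Ifit2 rose and Ifit1, Ifit3 and Ifit3b did not pass. Ifit2 had 349.7, 592, 582 and 720 normalized reads in vehicle and 419.9, 687, 707 and 758 in acetate, higher in each pair. Its change was 0.21 ± 0.05 (chr19:34550694-34576419, adjusted p = 0.0182). Ifit1 had a larger but less even change, 0.37 ± 0.17 (adjusted p = 0.217), from -0.22 in pair 4 to 0.83 in pair 1. Ifit3 and Ifit3b, at 0.763 to 40.2 normalized reads, changed by 0.29 ± 0.27 and 0.21 ± 0.28. Of the 75-base stretches of Ifit3 transcripts, 41.1% were also found in Ifit3b, so the split of reads between these genes is uncertain.

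Of the 8 antiviral enzymes and GTPases, 0 passed the threshold in limma with the block, where 5.99% of all genes were higher and 2.65% lower. Of the 8, 4 had an unadjusted p under 0.05 (22.4% of all genes), and edgeR called Oas1a. Oas1a, an oligoadenylate synthetase that activates RNase L, came closest, with 13.7, 70.8, 64.3 and 68.9 in vehicle and 21.2, 96.1, 77.4 and 96.3 in acetate. It was higher in each pair (0.44 ± 0.13, adjusted p = 0.0566), but 47.6% of its 75-base stretches were shared with Oas1g. Its relative Oasl2 changed by 0.21 ± 0.07 (adjusted p = 0.0871). The RNA-activated kinase gene Eif2ak2 changed by 0.09 ± 0.04, the viperin gene Rsad2 by 0.06 ± 0.16, its neighbor Cmpk2 by 0.09 ± 0.23 and the dNTPase gene Samhd1 by 0.02 ± 0.03. The signs of Rsad2 and Cmpk2 turned with quantile scaling and that of Samhd1 with median-of-ratios scaling. The Mx GTPases were scarce: Mx1 reached at most 12.3 normalized reads, and Mx2, annotated as a polymorphic pseudogene, 41, and their changes of 0.42 ± 0.35 and 0.68 ± 0.29 rested on 0 to 57 reads a library.

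The remaining roles gave no call. The ADP-ribosyl transferase Parp14 changed by 0.17 ± 0.05 (adjusted p = 0.0585) and Parp9, which pairs with Dtx3l, by 0.07 ± 0.04. Among guanylate-binding proteins, which attack pathogen vacuoles, Gbp7 was higher in 4 of 4 pairs (0.25 ± 0.09, adjusted p = 0.144). Gbp2 and Gbp3 had estimates of 0.01 ± 0.07 and -0.02 ± 0.10 with 2 of 4 pairs higher, and the sign of Gbp2 turned with both scalings. The subunits of the immunoproteasome activator, Psme1 and Psme2, changed by 0.12 ± 0.04 (adjusted p = 0.0909) and 0.03 ± 0.04 (adjusted p = 0.697). Socs1, the feedback inhibitor of Jak kinases, had 50.4, 35.8, 36.2 and 38.9 in vehicle and 38.5, 28.3, 35.9 and 34.5 in acetate. Its acetate library was the lower in every pair, but the change of -0.22 ± 0.15 did not pass (adjusted p = 0.442).

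The calls depended on which pairs were in the fit. Without replicate 1 all 8 genes kept their call, without replicate 4 Dhx58, Stat2 and Usp18 lost it, without replicate 2 Bst2, Ifi27 and Lgals3bp kept it, and without replicate 3 only Bst2 and Ifi27 did. The share of all genes called higher was 5.99% with all pairs, and 5.46%, 2.33%, 1.64% and 1.99% without replicates 1, 2, 3 and 4, so fewer calls came over the whole table as well. Tests on whole reads recovered from the values called 10 genes in edgeR (the 8, Oas1a and Zbp1, with 6.51% of all genes called higher) and 5 in DESeq2 (Bst2, Dhx58, Ifi27, Lgals3bp and Usp18, with 3.23% of all genes called higher).

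The rest of the interferon pathway was read in the same fit. None of the 18 interferon ligand genes could be analyzed here. Of 37 receptors, kinases, sensors and regulators, 4 were higher (10.8%) and 1 was lower with acetate, with a median change of 0.06. Over all genes, 5.99% were higher and 2.65% lower, with a median of 0.02. The receptors gave 0 of 6, also at an unadjusted p under 0.05, which 22.4% of all genes had. Ifnar1 had 868, 1716, 1640 and 1647 normalized reads in vehicle and 906, 1684, 1587 and 1773 in acetate (0.02 ± 0.04, adjusted p = 0.773). Ifnar2, the other chain of the type I receptor, had 224, 354, 366 and 404, and 276, 389, 400.1 and 367 (0.11 ± 0.07, adjusted p = 0.411). Neither chain passed, and the groups overlapped for both.

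Of the kinases, Jak2, which serves the interferon gamma receptor among many others, rose. It had 1377, 4249, 3265 and 6201 normalized reads in vehicle and 1448, 5353, 3946 and 8210 in acetate (0.27 ± 0.04, adjusted p = 0.00401). Jak1 had 3335, 3358, 3341 and 3352, and 3330, 3505, 3480 and 3521 (0.05 ± 0.03, adjusted p = 0.345). Thus Jak1 was nearly level across the vehicle libraries, in contrast to most ISGs. Tyk2 had 399, 953, 886 and 903, and 436, 977, 950.3 and 1057, higher in each pair but not past the threshold (0.12 ± 0.04, adjusted p = 0.1). Stat3, which mainly serves the interleukin 6 family, rose by 0.31 ± 0.04 (adjusted p = 7.27e-04).

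Upstream, the DNA-sensing adaptor Tmem173 (STING) rose by 0.23 ± 0.04 (adjusted p = 0.00464). Irf3, the factor that STING and RIG-I signaling activates, had 741, 1080, 1071 and 848 in vehicle and 819, 1056, 1050 and 897 in acetate, with 2 of 4 pairs higher (0.04 ± 0.04, adjusted p = 0.613). Of 64 other interferon targets, 11 were higher (17.2%, against 5.99% of all genes) and 0 lower (against 2.65%) with acetate. Their median change was 0.15. Without replicates 2, 3 and 4 in turn, 4, 2 and 3 were higher, against 2.33%, 1.64% and 1.99% of all genes. The 11 included Slfn2 (0.54 ± 0.07), Helz2 (0.22 ± 0.04), Lgals9 (0.57 ± 0.10), Ifi203 (0.15 ± 0.03) and Oas3 (0.89 ± 0.18), with adjusted p-values from 0.00169 to 0.0113. Of the immune markers, Csf1r was higher with acetate, at 9.55 to 17.9 in vehicle and 21.7 to 35.5 in acetate (1.08 ± 0.20, adjusted p = 0.00774), and so were 2 of the 4 fibroblast markers, Pdgfra (0.52 ± 0.06) and Pdgfrb (1.40 ± 0.29). Of the 6 epithelial markers, Krt19 (0.40 ± 0.04), Cldn4 (0.30 ± 0.03) and Cdh1 (0.15 ± 0.03) were higher. The part of these markers in the ISG changes was not tested.

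**Figure D3:**
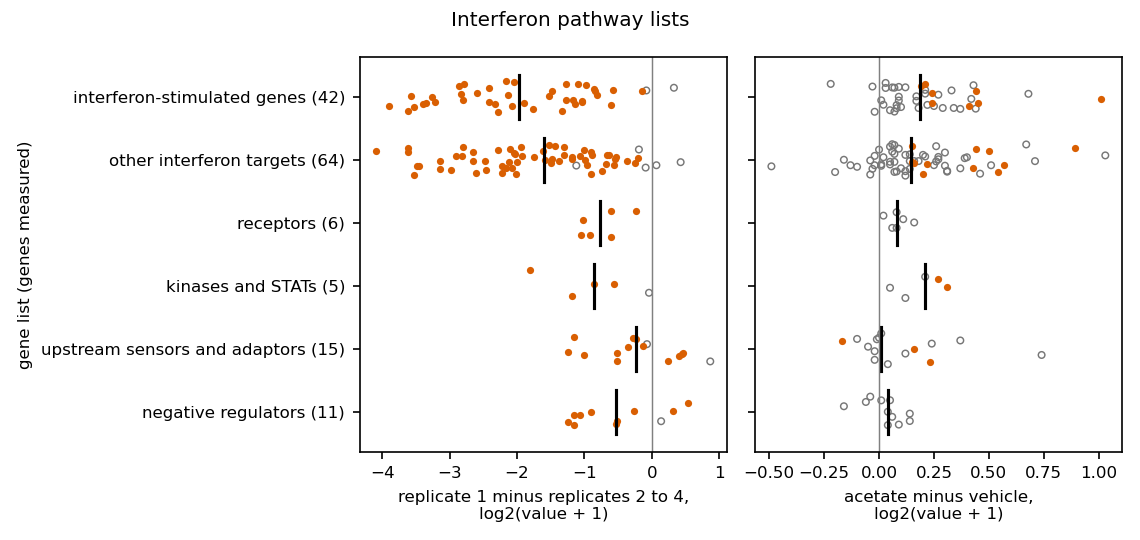
Each circle is a gene of the list named at the left, with the log2(value + 1) difference of replicate 1 from replicates 2 to 4 (left panel) and of acetate from vehicle (right panel), filled where the adjusted p was under 0.05 and with a black bar at the list's median. The ISG and other target medians lie at -1.96 and -1.60 in the left panel and at 0.18 and 0.15 in the right panel.

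The second question was how ISG levels differed among the 4 replicate numbers. Replicate 1 was lower than the mean of the other 3 for 40 of the 42 genes and higher for 0 (limma, adjusted p under 0.05), where 38.6% of all genes were lower and 18.6% higher. The median difference was -1.96 on the log2 scale for the 42 genes and -0.22 for all genes. Both libraries of replicate 1 lay below all 6 others for 41 of the 42, the exception being Socs1, and for 35.2% of all genes. The replicate number as a whole (F test) was past the threshold for 40 of the 42, all but Socs1 and Samhd1, against 58.2% of all genes. It held a median of 96.8% of the variance of these genes, and treatment 1.7%. Over the 18188 genes with a mean above 1 normalized read, the medians were 84.8% and 3.5%.

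The low level of replicate 1 was present at baseline, in vehicle-treated cells. Vehicle replicate 1 was the lowest of the 4 vehicle libraries for 41 of the 42 genes, against 47% of all genes, with a median difference of -2.02. Acetate replicate 1 was the lowest of the acetate libraries for 41 as well, against 47.8%, with a median difference of -1.88. The depth of replicate 1 was 26.2 M reads in vehicle and 25.5 M in acetate, between those of the shallowest and the deepest library.

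**Figure D4:**
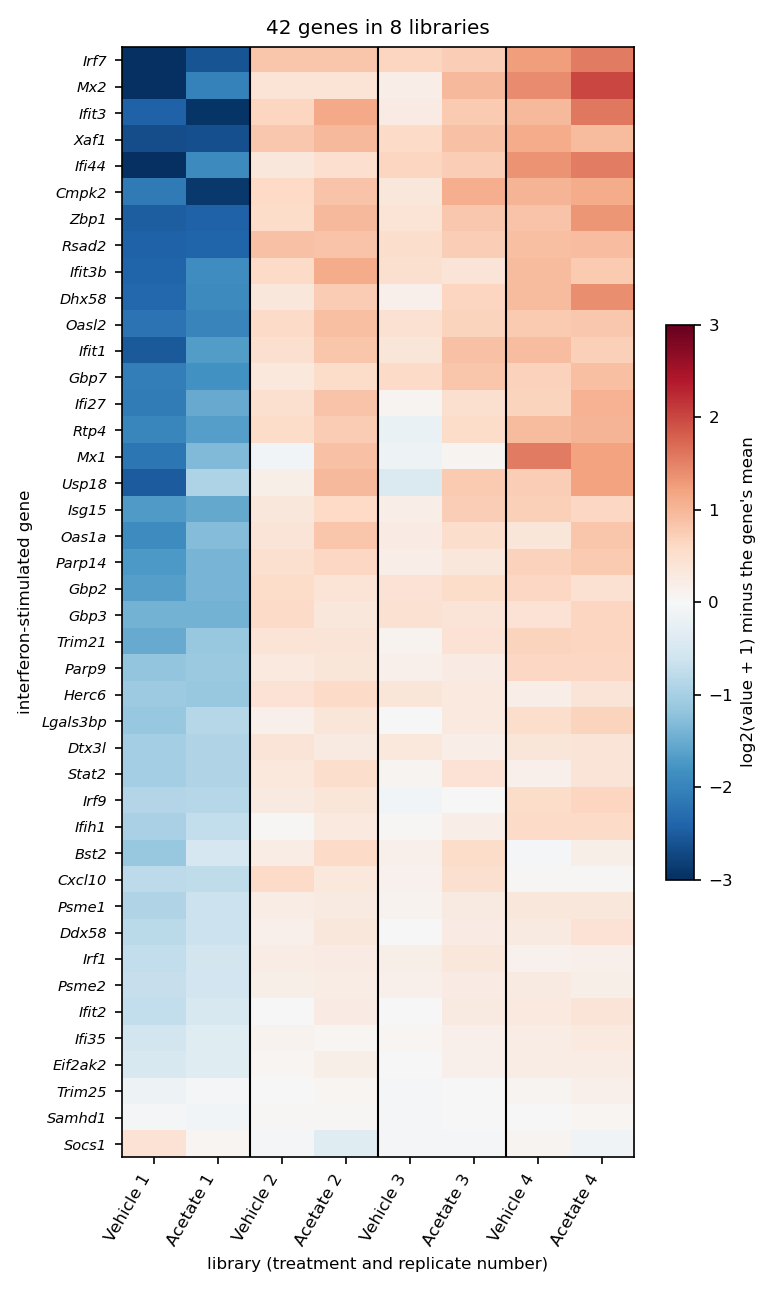
Each row is 1 of the 42 genes and each column a library, with color showing log2(value + 1) minus the gene's mean over the 8 libraries (color scale from -3 to 3, values beyond it drawn at its ends). Rows are ordered by the difference of replicate 1, from Irf7 at -3.90 to Socs1 at 0.33, and both columns of replicate 1 are blue for nearly all genes.

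The genes with the widest range between numbers were Mx2, Irf7, Ifi44, Ifit3, Xaf1 and Cmpk2. Irf7 (chr7:141262706-141266481) had 4.58, 93.6, 82.4 and 126 normalized reads in vehicle replicates 1 to 4 and 7.85, 94.5, 87.8 and 155 in acetate. The 6 other libraries thus lay far above both of replicate 1, and the mean of replicate 1 was 17.2-fold below theirs. On the log2 scale the difference was -3.90 ± 0.17 (adjusted p = 2.06e-09), and replicate 4 was the highest, as for 34 of the 42 genes.

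Xaf1, which encodes a partner of the apoptosis inhibitor XIAP, had 8.4, 104, 87.5 and 128 in vehicle and 8.63, 116, 109 and 114 in acetate. Replicate 1 was 12.9-fold below the mean of the others, a difference of -3.53 ± 0.15 (chr11:72301629-72313733, adjusted p = 1.69e-09). The nucleotide kinase gene Cmpk2 (chr12:26469204-26479837) had 6.11, 45.6, 38.2 and 61.4, and 3.14, 54.9, 65.1 and 66.1. Ifi44 (chr3:151730922-151749960) had 2.29, 37.4, 46.2 and 75.8, and 7.06, 42, 49.1 and 86.2. In all of these the replicate 1 libraries did not overlap the rest, and the change between treatments was small beside the gap.

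Mx2 (chr16:97535308-97560900) had 0, 13, 11.1 and 27.3 in vehicle and 1.57, 12.9, 19.8 and 41 in acetate. Ifit3 (chr19:34583531-34588731) had 1.53, 20.3, 15.1 and 25.9, and 0.785, 29.1, 22.6 and 40.2. These values of replicate 1 stood for 2 reads or fewer, so no fold is given, and the log2 differences of -3.62 ± 0.33 and -3.58 ± 0.31 depend on the pseudocount of 1.

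By role, the difference of replicate 1 was widest in the IFIT family, with a median of -2.83, and in the antiviral enzymes and GTPases, with -2.56. It was -2.04 in the guanylate-binding proteins, -1.99 in the sensors, -1.62 in the Isg15 system and ubiquitin ligases and -1.22 in the transcription factors. The proteasome activator subunits Psme1 (-1.03 ± 0.05) and Psme2 (-0.84 ± 0.05), which had the highest levels per kilobase of exon of the 42 (824 and 763 normalized reads), differed less. Ifi27, next at 622, differed by -2.42 ± 0.05, and a link between level and difference was not tested. Within roles the genes were far from uniform: Dhx58 differed by -2.84 and its relative Ddx58 by -0.97, Mx2 by -3.62 and Eif2ak2 by -0.57, and Irf7 by -3.90 and Irf1 by -0.85. The 8 genes that rose with acetate ranged from -2.84 (Dhx58) to -0.81 (Ifit2).

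Trim25 and Samhd1 were near level, and Socs1, whose values are given above, ran the other way, with a range of 0.46 between its number means and a difference of 0.33 ± 0.18 for replicate 1 (adjusted p = 0.135). Trim25 had 2584, 2861, 2784 and 3049 in vehicle and 2764, 2997, 2886 and 3195 in acetate. Samhd1 had 2212, 2350, 2241 and 2280, and 2163, 2354, 2301 and 2380. Both are well expressed, Trim25 at 502 and Samhd1 at 249.7 normalized reads per kilobase of exon, and their number means differed by 0.22 and 0.10 at most on the log2 scale. With median-of-ratios scaling, which moves the all-gene median of replicate 1 to -0.06, Trim25 was not past the threshold (0.05, adjusted p = 0.183), and Samhd1 (0.12, adjusted p = 0.0127) and Socs1 (0.53, adjusted p = 0.0243) were higher in replicate 1. The other 39 genes were lower under that scaling too, where 29.9% of all genes were, with a median of -1.77 over the 42. With quantile scaling, which sets the all-gene median at 0.05, 40 were lower, against 27.3%, the median was -1.33, and Socs1 was higher by 1.10 (adjusted p = 1.5e-04). Trim25 was lower in the main fit (-0.15, adjusted p = 0.00143) and with quantile scaling (-0.16, adjusted p = 7.32e-04). Samhd1 did not pass in the main fit (-0.08, adjusted p = 0.0561) and was lower with quantile scaling (-0.10, adjusted p = 0.0273). The direction of both thus turned between scalings.

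**Figure D5:**
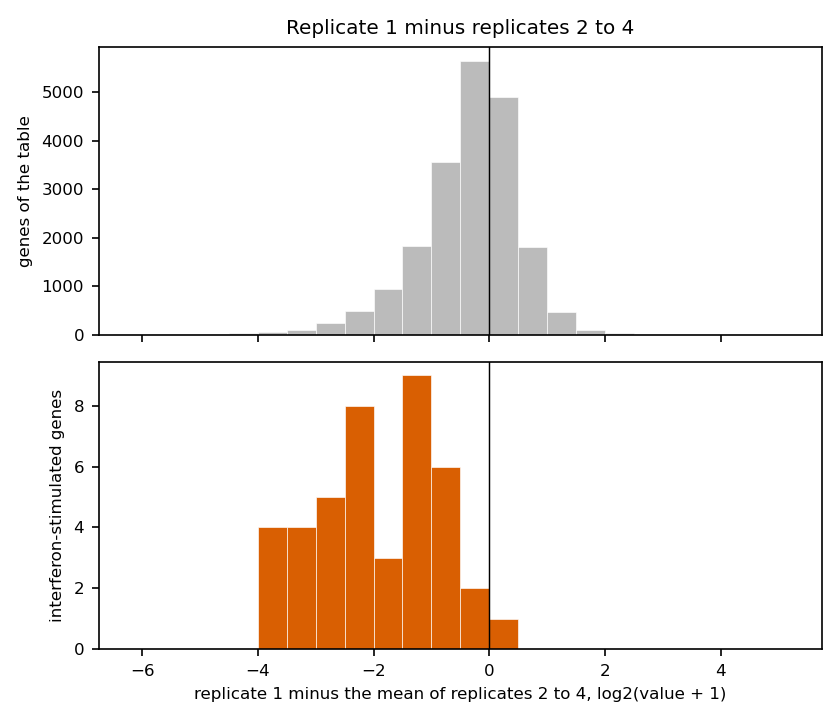
Number of genes (y axes) by the difference of replicate 1 from the mean of replicates 2 to 4 on the log2(value + 1) scale (x axis, bins of 0.5), for all 20189 genes (upper) and the 42 ISGs (lower). The median lies at -0.22 for all genes and at -1.96 for the ISGs, of which only Socs1 lies above 0.

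Replicates 2, 3 and 4 were closer to each other. Each of them was called higher than the mean of the other 3 numbers, which includes the low replicate 1, for most of the genes: replicate 2 for 35 of the 42 genes (16.7% of all genes), replicate 3 for 28 (12.1%) and replicate 4 for 38 (25.9%). None of the 3 was lower for any of the genes in this fit (4.53%, 2.76% and 19.9% of all genes), and the median differences were 0.57, 0.37 and 0.81. Without replicate 1 these medians were -0.01, -0.19 and 0.20, so the higher levels of replicates 2 and 3 rested on the low replicate 1. Without replicate 1, the F test over the 3 remaining numbers called 17 of the 42 genes, against 30.7% of all genes. In that fit replicate 4 was the higher for 20 (15.3% of all genes) and replicate 3 the lower for 10 (9.83%).

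In the pathway upstream, replicate 1 was lower for 27 of the 37 genes (73%), higher for 6, by 0.24 to 0.54, and not called for 4. The median was -0.52. Over all genes, 38.6% were lower and 18.6% higher, with a median of -0.22. Whether the 37 pathway genes differed from the 42 ISGs in this was not tested. Replicate 1 was lower for all 6 receptor genes (median -0.77), for Tyk2 (-1.19 ± 0.05) and for Jak2 (-1.81 ± 0.05), while Jak1 did not pass (-0.04 ± 0.03, adjusted p = 0.31). Irf3 was lower as well (-0.35 ± 0.05). Of the 64 other interferon targets, 59 were lower in replicate 1 (92.2%, against 38.6% of all genes), with a median of -1.60, among them Slfn2 (-3.62 ± 0.09) and Oas3 (-3.46 ± 0.21). The epithelial markers moved with the number too: Krt19 (-1.25), Cldn4 (-0.80), Epcam (-0.75), Krt18 (-0.36) and Krt8 (-0.22) were lower in replicate 1 and Cdh1 was higher (0.21). Of the 4 immune markers, Cd68 and Lyz2 were lower in replicate 1 (-1.01 and -1.18) and Ptprc and Csf1r did not pass. Of the 4 fibroblast markers, Pdgfra, Pdgfrb and Dcn were lower (-2.27, -3.33 and -2.04) and Col1a2 was higher (1.55), and the part of any of these in the ISG levels was not tested. The experiment code, and whatever else differed between experiments, cannot be told apart from the replicate number.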

How the data were processed

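Messenger RNA was sequenced from 8 libraries of 4T1 cells, 4 with vehicle and 4 with acetate. Per the study's methods, the authors aligned reads to the GRCm38 transcriptome and counted them per gene with STAR (the labels also list HTSeq; versions were not given in the sources used here). The deposited values are a signal: the authors divided gene reads by the library total, so that every library sums to about 20000000, and kept genes expressed in enough samples (each gene was above 0 in at least 4 libraries). Whether counting used strand was not stated, so Dtx3l and Parp9, which overlap on opposite strands, may share reads, as may Irf7 and Phrf1, Irf1 and Gm17334, Usp18 and Gm44148, and Psme1 and Emc9. Irf9 overlaps Rnf31 on the same strand.

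Symbols and positions came from GENCODE M21 (20004 of 20189 identifiers). Acetate was compared with vehicle by a two-sided moderated test in limma 3.58.1 under R 4.3.3, with a trend of variance on mean level in eBayes, on log2(value + 1). The model had the replicate number as a block, and p-values were adjusted by Benjamini-Hochberg over all genes (threshold 0.05). This scale understates changes of low genes. The pairing rests on the shared experiment codes, and deviations of paired libraries from their group means correlated at 0.81, 0.27, 0.20 and 0.69 over 18188 genes. In the same fit, replicate numbers were compared by an F test and by each number against the mean of the other 3.

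Dividing by the smallest value above 0 gave whole reads (within 0.01) for at least 99.99% of values in each library. edgeR 4.0.16 and DESeq2 1.42.0 were run on these reads as alternatives. In vehicle replicate 3, 1 read was worth 1.0053 units, too near 1 to tell from rounding, so edgeR was also run without pair 3, an alternative chosen after seeing the data. Other alternatives were pseudocounts of 0.1 and 5, a minimum mean of 10, median-of-ratios and quantile scaling, and leaving out pairs or libraries. Scripts were tested on simulated data.

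The genes, lists and roles were chosen with earlier results of these data known. Values in each library were given for genes past the threshold, for the 6 with the widest range between numbers, for Ifnar1, Ifnar2, Jak1, Tyk2 and Irf3, and for a few others chosen after their values were seen. Of the pathway and other target lists, the 8 called genes with the smallest adjusted p were named, and Myd88 and Ddx41 were added after their values were seen, beside the cell type markers. The lists written held 42 genes, 59 pathway genes (37 in the table), 67 other targets (64) and 26 markers (17). A gene of the pathway list that this rule names is not reported here, and counts over that list include it.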

Additional observations from a re-analysis of the deposited data

Results flagged for a closer look

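In 84 groups of 4 libraries (42 genes in vehicle and in acetate), the gap between the highest or lowest library and the nearest other was divided by the group's range. It passed Dixon's 95% critical value in 15 groups of 13 genes, 17.9% of those tested, where chance would give about 4.2 groups and where 9.18% of such groups over all genes passed it. In all 15 the library far from the others was replicate 1, at the low end, which held for 3.33% of the groups over all genes. Genes of 1 library are not independent of each other. In vehicle the ratio was 0.883 for Irf1, 0.887 for Oas1a, 0.934 for Dtx3l, 0.854 for Gbp2, 0.866 for Gbp3 and 0.830 for Psme2. In acetate it was 0.859 for Stat2, 0.856 for Ifit1, 0.843 for Eif2ak2, 0.874 for Rsad2, 0.882 for Isg15, 0.879 for Gbp2, 0.882 for Psme1, 0.885 for Psme2 and 0.944 for Xaf1. Of the 8 genes that rose with acetate, Stat2 is among them, and all 8 kept their call without replicate 1.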

How the results depend on the processing

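Without the replicate block, limma called 0 of all genes (353 with an unadjusted p under 0.05; 0 higher and 0 lower), 0 of the 42 interferon-stimulated genes, 0 pathway genes higher and 0 lower, and 0 other interferon targets. The block is the paired design set by the shared experiment codes, and its 1744 calls (1209 higher, 535 lower) are given in the report. DESeq2 called 1126 genes (653 higher), 5 of the 42 and 5 other targets, edgeR on all libraries called 1086 lower, and median-of-ratios scaling 821 lower. edgeR without pair 3 called 4 of the 42 (Bst2, Dhx58, Ifi27 and Lgals3bp) and 7 other targets, with a median change over the 42 of 0.11. It called 832 of all 20189 genes higher. With genes of a mean of at least 10, 17 other targets and 11 of the 42 were called, adding Oas1a, Parp14 and Psme1. In that fit 1489 of the 13292 genes were called higher, so more calls came over the whole table as well. Of the differences of replicate 1, 2 of the 42 were higher with median-of-ratios scaling, 1 with quantile scaling and 2 in edgeR, and the median was -1.69 with a pseudocount of 5, -1.77 with median-of-ratios scaling, -1.33 with quantile scaling, -1.76 in edgeR and -1.78 in DESeq2. Replicate 3 was higher for 15 and lower for 1 with quantile scaling, and lower for 1 in edgeR. Except for these scalings' own all-gene shifts, given in the report, the cause was not tested.

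Signs of genes near 0 turned. With quantile scaling the acetate change was -0.05 for Rsad2, -0.05 for Cmpk2, -0.04 for Gbp2, -0.10 for Cxcl10 and -0.02 for Xaf1. With median-of-ratios scaling it was -0.00 for Samhd1 and -0.01 for Gbp2. In edgeR it was -0.00 for Samhd1, -0.06 for Gbp2 and -0.00 for Cxcl10, in DESeq2 -0.00 for Samhd1 and -0.04 for Gbp2, and in edgeR without pair 3 -0.03 for Rsad2, -0.01 for Samhd1, -0.11 for Gbp2, -0.13 for Cxcl10, -0.01 for Psme2 and -0.04 for Xaf1.

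Leaving out 1 pair from the blocked fit or 1 library from the unblocked fit gave 0 to 1662 calls over all genes, 0 to 1103 higher and 0 to 559 lower, with every value of 0 from the unblocked fit (the blocked fits gave 409 to 1662). For the 42 it gave 0 to 8 higher (blocked 2 to 8) and a median of -0.26 to 0.61 (blocked 0.14 to 0.21), for the pathway 0 to 4 higher and 0 to 1 lower, and for other targets 0 to 11 higher (blocked 2 to 11). Without a pair, the F test called 17 to 40 of the 42. Replicate 2 was then higher for 0 to 39 and lower for 0 to 1 (median -0.01 to 0.98), replicate 3 higher for 0 to 35 and lower for 0 to 10 (median -0.19 to 0.74), and replicate 4 higher for 20 to 39 and lower for 0 to 1 (median 0.20 without replicate 1, against 0.81 with all pairs), and the lowest numbers of genes called higher came without replicate 1. Removing vehicle replicate 1 from the unblocked fit, which takes the low library from the vehicle group and leaves its partner, turned the sign of 35 of the 42. For each of the 8 genes called in the main fit all 4 pairs rose, so their values below 0 came from the unblocked fit. The ranges that follow pool the blocked and unblocked fits and leave out Usp18, Bst2, Trim25, Samhd1 and Socs1. The log2 changes over these fits ran as follows: Stat2 -0.06 to 0.57, Irf1 -0.13 to 0.29, Irf7 -0.78 to 1.17, Irf9 -0.20 to 0.39, Ifit1 -0.40 to 1.00, Ifit2 -0.00 to 0.40, Ifit3 -0.47 to 1.32, Ifit3b -0.56 to 0.87, Ifih1 -0.13 to 0.44, Ddx58 -0.05 to 0.43, Dhx58 -0.26 to 1.16, Zbp1 -0.44 to 1.19, Oas1a -0.12 to 0.95, Oasl2 -0.50 to 0.90, Mx1 -0.23 to 1.01, Mx2 -0.34 to 1.47, Eif2ak2 -0.05 to 0.23, Rsad2 -0.74 to 0.87, Cmpk2 -0.61 to 1.07, Isg15 -0.32 to 0.77, Herc6 -0.30 to 0.44, Trim21 -0.30 to 0.58, Dtx3l -0.38 to 0.26, Parp9 -0.32 to 0.45, Parp14 -0.37 to 0.67, Gbp2 -0.54 to 0.48, Gbp3 -0.50 to 0.44, Gbp7 -0.40 to 0.89, Cxcl10 -0.22 to 0.29, Lgals3bp -0.10 to 0.56, Psme1 -0.16 to 0.36, Psme2 -0.19 to 0.23, Ifi35 -0.09 to 0.21, Ifi44 -0.56 to 1.14, Ifi27 -0.19 to 1.02, Xaf1 -0.79 to 0.98, Rtp4 -0.26 to 0.95.

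Few reads limit the scarce genes: Mx1 rested on 0 to 18 reads a library, Mx2 on 0 to 57, Ifit3 on 1 to 56 and Ifit3b on 1 to 25. Oas1a, Ifit3, Ifit3b and Psme2 shared between 22.9% and 47.6% of their 75-base stretches with another gene, and Herc6, Gbp7, Rtp4, Ifi35, Dtx3l, Parp9 and Ifit1 between 5.2% and 11.3%. With 4 pairs, a change was called or missed by the spread of 4 differences.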

Other observations

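Levels per kilobase of exon, as means over the 8 libraries, spread widely among the 42 genes. The proteasome activator genes Psme1 and Psme2 led with 824 and 763 normalized reads per kilobase, followed by Ifi27 (622), Bst2 (599), Trim25 (502) and Irf1 (434). Mx1 (1.31), Mx2 (4.38), Ifit3b (5.64) and Ifi44 (7.06) were the lowest. Isg15 stood at 210.2, the sensors at 17 (Zbp1) to 135 (Ddx58), and the transcription factors other than Irf1 at 21.6 (Irf7) to 79.1 (Stat2).

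Of 15 upstream sensors and adaptors, 2 were higher with acetate, Tmem173 and Myd88, and 1 was lower, Ddx41, a helicase linked to DNA sensing. Over all genes, 5.99% were higher and 2.65% lower. Myd88, the adaptor of most Toll-like receptors, had 575, 510.3, 495 and 473 normalized reads in vehicle and 653, 563, 541 and 535 in acetate, higher in 4 of 4 pairs (0.16 ± 0.04; limma with the block, adjusted p = 0.0394). Ddx41 had 1243, 1005, 1067 and 758 in vehicle and 1151, 904, 904 and 669.9 in acetate, lower in 4 of 4 pairs (-0.17 ± 0.04; adjusted p = 0.0156). Without replicate 2, 3 or 4 this call was lost, with 0 pathway genes called lower. In those fits 3, 2 and 1 pathway genes were called higher, against 4 with all pairs. Myd88 and Ddx41 were both highest in replicate 1, where most interferon-stimulated genes were lowest (0.24 ± 0.05 for Myd88 and 0.45 ± 0.04 for Ddx41). Of 11 genes listed as negative regulators of the pathway, 0 passed the threshold with acetate in this fit. Of the 11, 4 had an unadjusted p under 0.05, as did 22.4% of all genes. A gene of that list is also counted among the 64 other interferon targets. Myd88 and Ddx41 were named after their values were seen.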
